A study of Mus musculus with 23 samples.

Results

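The Toll-like receptor family was followed as 10 genes, Tlr1, Tlr2, Tlr3, Tlr4, Tlr5, Tlr6, Tlr7, Tlr8, Tlr9 and Tlr13, chosen by symbol and all present, out of 43068 genes in the nerve crush files and 22880 genes in the inducible mutant files. The data are RNA-seq of whole mouse sciatic nerves (SNs), 23 libraries in 7 groups, on the C57bl6 background (C57BL/6J for the crush experiment, per the study's methods). In the crush experiment, wild-type male mice aged 2 months gave 4 Crushed nerves (a 7 mm piece distal to the crush, 3 days after injury) and 4 Contralateral nerves from the uninjured side. A further 3 Uncrushed nerves came from mice that the study calls uncrushed controls. Buprenorphine was given around the crush surgery. In the mutant experiment, mice carried Dicer1 flox/flox or Dgcr8 flox/flox with 1 copy of P0-CreERT2 (the iKO groups, 3 nerves each) or without it (their controls, 3 nerves each). This Cre is produced in myelinating Schwann cells (SCs), and it becomes active with tamoxifen. Mutants and controls alike were injected on 5 consecutive days at 8 to 10 weeks of age and analysed 3 months later, and the mutants were of a subset with morphological changes. The mutant mice could be of either sex. In the production of microRNAs (miRNAs), Dicer1 encodes an enzyme and Dgcr8 encodes the RNA-binding partner of another enzyme, Drosha.

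Toll-like receptors recognise conserved microbial molecules and molecules released by damaged cells. Tlr1, Tlr2, Tlr4, Tlr5 and Tlr6 sit at the cell surface, and Tlr3, Tlr7, Tlr8, Tlr9 and Tlr13 signal from endosomes, where they meet nucleic acids. On binding a ligand they recruit adaptors, mainly Myd88 or Ticam1, which act through kinases and ubiquitin ligases on NF-kB and interferon regulatory factors and so on cytokine genes. In injured nerve they are best known on macrophages and other myeloid cells, and SCs also carry some of them.

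Levels are given as CPM, counts scaled to a common library total, after trimmed mean of M values (TMM) scaling, computed separately for the 2 experiments, for which the labels name different library kits. CPM values of the experiments are therefore not compared with each other. Library totals ran from 6617716 to 12806066 counts in the crush experiment and from 5594859 to 10143244 in the mutant experiment. A count of 3, used as the detection limit, equalled 0.236 to 0.515 CPM and 0.286 to 0.518 CPM respectively on this scale. A gene was called when its fold change was at least 2 (1 on the log2 scale) and its adjusted p was at most 0.05 in the quasi-likelihood test of edgeR, adjusted by Benjamini-Hochberg over all tested genes. Library by library, Dicer1 was at 81.4, 82.2 and 82.0 CPM in the Dicer iKO and at 88.1, 87.5 and 90.6 CPM in its controls, and Dgcr8 was at 39.4, 54.0 and 41.8 CPM in the Dgcr8 iKO and at 38.4, 35.4 and 41.8 CPM in its controls. These counts cover each whole gene in all cells of the nerve, so they do not check the deletion of the floxed part. The Y-linked genes Ddx3y and Eif2s3y had no count in 1 Dicer control (replicate 3) and 2 Dicer iKO nerves (replicates 2 and 3), and were present in the other 20 libraries. Crushed replicate 1 had the lowest myeloid marker sum of its group, at 998 CPM against 1701 to 2101 CPM in the other 3 Crushed nerves.

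In crushed nerves most of the family was higher. Against Uncrushed nerves 7 of 10 genes rose, where 15.3% of the 17433 tested genes were called higher and 21.1% were called lower. Against Contralateral nerves 9 of 10 rose, where 14.6% of 16667 genes were called higher and 13.6% lower. The 2 comparisons share the Crushed nerves. No member was called lower in either. Of the called members, Tlr1 and Tlr8 passed the filter on low counts against Uncrushed nerves only with the Crushed nerves. So did Tlr1, Tlr2, Tlr6, Tlr8 and Tlr9 against Contralateral nerves. Passing in this way favours a rise, and the lowest control counts of these members were 3 to 9. The median log2 fold change of the 10 genes was 1.89 against Uncrushed nerves and 2.33 against Contralateral nerves, beside -0.03 and -0.06 over all tested genes. All Crushed nerves lay above all Uncrushed nerves for 8 members (29.7% of all tested genes) and above all Contralateral nerves for 9 members (30.3% of all tested genes).

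**Figure D1:**
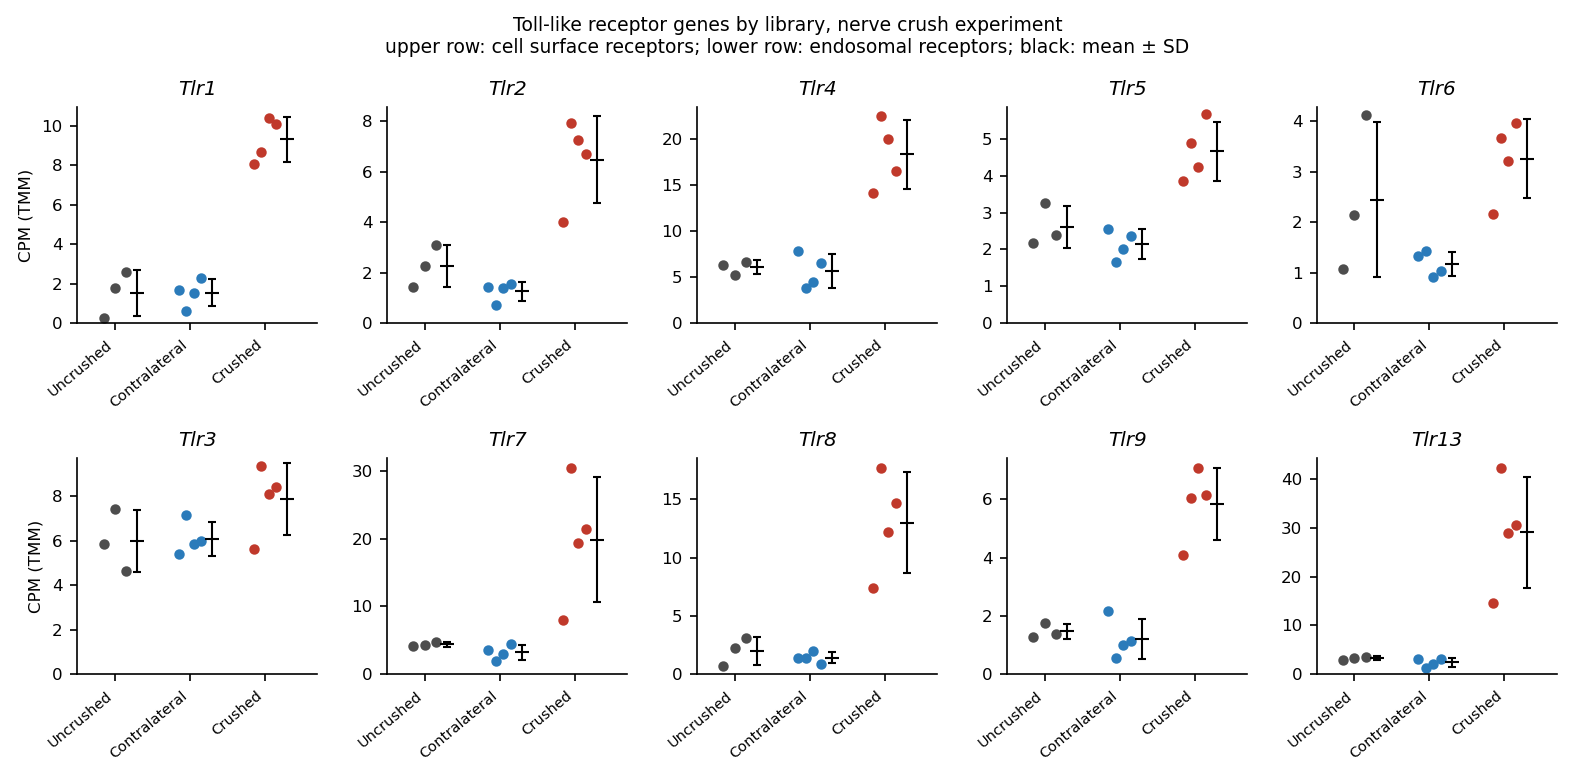
Each panel plots 1 Toll-like receptor gene in the crush experiment, with CPM on a linear axis from 0, 1 point per nerve, and the mean ± SD in black beside each group (Uncrushed n = 3, Contralateral n = 4, Crushed n = 4). The Crushed points lie apart from both control groups in every panel but those of Tlr6 and Tlr3, and Tlr13 reaches the highest Crushed value, 42.3 CPM.

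Among the surface receptors, Tlr1, which pairs with Tlr2 to bind lipopeptides, was at 8.05, 8.66, 10.4 and 10.1 CPM in Crushed nerves, at 1.70, 0.630, 1.51 and 2.27 CPM in Contralateral nerves and at 0.271, 1.76 and 2.57 CPM in Uncrushed nerves. The 4 Crushed values were close together and clear of all control values, and the lowest control value was at about the detection limit. Its log2 fold change was 2.88 ± 0.39 (SE) against Uncrushed nerves (edgeR adjusted p = 4.14e-05) and 2.65 ± 0.24 against Contralateral nerves (edgeR adjusted p = 2.40e-07). Tlr2 (chr3:83836272-83841767, GRCm38, minus strand), the shared partner in lipopeptide binding, was at 4.02, 7.92, 7.26 and 6.72 CPM in Crushed nerves, at 1.42, 0.709, 1.41 and 1.54 CPM in Contralateral nerves and at 1.44, 2.26 and 3.09 CPM in Uncrushed nerves. Crushed replicate 1 was the lowest of its group and still above every control nerve. Tlr2 rose by 1.69 ± 0.30 and 2.38 ± 0.27 on the log2 scale against Uncrushed and Contralateral nerves (edgeR adjusted p = 0.000348 and 1.83e-06).

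Tlr4 (chr4:66827584-66930284, GRCm38, plus strand), the receptor for lipopolysaccharide, was at 14.2, 22.6, 20.1 and 16.6 CPM in Crushed nerves, at 7.86, 3.86, 4.53 and 6.59 CPM in Contralateral nerves and at 6.32, 5.28 and 6.69 CPM in Uncrushed nerves. The 2 sets of control nerves overlapped, and none reached the lowest Crushed nerve. The rise was nearly equal against both, 1.69 ± 0.17 and 1.71 ± 0.19 on the log2 scale (edgeR adjusted p = 3.67e-06 and 2.09e-06). Tlr5 (chr1:182954788-182976044, GRCm38, plus strand), the receptor for bacterial flagellin, was at 3.86, 4.90, 4.23 and 5.67 CPM in Crushed nerves, at 2.56, 1.65, 2.01 and 2.37 CPM in Contralateral nerves and at 2.17, 3.27 and 2.40 CPM in Uncrushed nerves. All Crushed nerves were above all controls by a modest margin. Tlr5 rose against Contralateral nerves (log2 fold change 1.14 ± 0.21, edgeR adjusted p = 0.000214), and against Uncrushed nerves it was at 0.94 ± 0.24, short of the fold limit (edgeR adjusted p = 0.00440). It was called there without Crushed replicate 1 (at a log2 fold change just over 1), without Uncrushed replicate 2 (1.18) and with no filter on low counts (1.17).

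Tlr6, another partner of Tlr2, was at 2.17, 3.67, 3.22 and 3.97 CPM in Crushed nerves, at 1.33, 1.42, 0.906 and 1.03 CPM in Contralateral nerves and at 1.08, 2.14 and 4.12 CPM in Uncrushed nerves. The Uncrushed nerves were spread over the whole range of the Crushed ones, and the Contralateral nerves were all below. It rose against Contralateral nerves (log2 fold change 1.46 ± 0.27, edgeR adjusted p = 0.000229). Against Uncrushed nerves its log2 fold change of 0.63 ± 0.38 was not called (edgeR adjusted p = 0.156), and it became 1.16 and was called without Uncrushed replicate 3 (edgeR adjusted p = 0.0183). Tlr1 and Tlr6 are neighbours on chromosome 5, at chr5:64924679-64933563 and chr5:64952031-64960097 (GRCm38, minus strand, 18467 bases apart), and they share long identical stretches. Of the stretches of 50 bases in their annotated transcripts, 15.4% of those of Tlr1 and 12.3% of those of Tlr6 also occurred in a transcript of another gene, most of them in the other of this pair. Reads from the shared part were divided between them by the authors' quantification, so the values of these 2 genes are uncertain to that extent.

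Of the endosomal receptors, Tlr13 (chrX:106143204-106160493, GRCm38, plus strand), which binds bacterial ribosomal RNA, had the largest rise of the family after crush. It was at 14.5, 42.3, 29.0 and 30.7 CPM in Crushed nerves, at 3.03, 1.34, 2.01 and 3.19 CPM in Contralateral nerves and at 2.80, 3.27 and 3.6 CPM in Uncrushed nerves. In CPM the Crushed nerves differed among themselves more than the controls did, at a higher level. The mean ± SD was 29.1 ± 11.4 CPM in Crushed (n = 4), 2.39 ± 0.875 CPM in Contralateral (n = 4) and 3.22 ± 0.404 CPM in Uncrushed nerves (n = 3). The fold change was 9.82 against Uncrushed nerves (log2 3.30 ± 0.34, edgeR adjusted p = 3.93e-06) and 12.5 against Contralateral nerves (log2 3.64 ± 0.31, edgeR adjusted p = 1.21e-07). Tlr8, a receptor for single-stranded RNA, was at 7.40, 17.7, 12.2 and 14.7 CPM in Crushed nerves, at 1.42, 1.34, 2.01 and 0.824 CPM in Contralateral nerves and at 0.722, 2.26 and 3.09 CPM in Uncrushed nerves. No control nerve came near the Crushed range. Tlr8 rose 7.57-fold against Uncrushed nerves (log2 2.92 ± 0.39, edgeR adjusted p = 3.94e-05) and 9.30-fold against Contralateral nerves (log2 3.22 ± 0.29, edgeR adjusted p = 1.91e-07).

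Tlr7, the other receptor for single-stranded RNA, was at 8.05, 30.5, 19.4 and 21.4 CPM in Crushed nerves, at 3.50, 1.89, 3.02 and 4.43 CPM in Contralateral nerves and at 4.15, 4.27 and 4.80 CPM in Uncrushed nerves. Crushed replicate 1 was far below the other 3 Crushed nerves and still above the highest control. The log2 fold changes were 2.28 ± 0.37 and 2.66 ± 0.34 (edgeR adjusted p = 0.000195 and 8.13e-06). Tlr9 (chr9:106222598-106226883, GRCm38, plus strand), a receptor for unmethylated DNA, was at 4.10, 6.04, 7.08 and 6.15 CPM in Crushed nerves, at 2.18, 0.551, 1.01 and 1.13 CPM in Contralateral nerves and at 1.26, 1.76 and 1.37 CPM in Uncrushed nerves. It rose by 2.09 ± 0.27 and 2.29 ± 0.30 on the log2 scale (edgeR adjusted p = 2.37e-05 and 1.08e-05). Tlr7 and Tlr8 are neighbours on the X chromosome, at chrX:167304929-167330558 and chrX:167242696-167264329 (GRCm38, minus strand, 40599 bases apart), and shared no stretch of 50 bases with each other or with other genes.

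Tlr3, which binds RNA duplexes and signals through Ticam1, was the member that was called in no comparison. It was at 5.63, 9.39, 8.09 and 8.42 CPM in Crushed nerves, at 5.4, 7.17, 5.84 and 5.97 CPM in Contralateral nerves and at 5.87, 7.42 and 4.63 CPM in Uncrushed nerves. Crushed replicate 1 lay within the control range and the other 3 Crushed nerves lay above it. The log2 fold changes were 0.48 ± 0.21 and 0.38 ± 0.17 (edgeR adjusted p = 0.0630 and 0.0640). An antisense gene, Gm45542, overlaps Tlr3 at chr8:45395665-45411080 (GRCm38, minus strand), and 5.30% of the stretches of 50 bases of Tlr3 are found in it on the opposite strand. Whether the authors' counting used the strand is not given in the sources used here.

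Sequence in front of the genes was taken from RefSeq (GRCm38.p6), where 8 of the 10 members, all but Tlr4 and Tlr7, had a promoter (Tlr1 and Tlr6 had 2 each), and the 250 bases before each start were searched on both strands. The core recognised by PU.1, the product of the myeloid gene Spi1, was searched as GAGGAA and was present in front of 4 members, Tlr1, Tlr8, Tlr9 and Tlr13, and in 23.3% of all 32851 promoters. The NF-kB motif, searched as GGG and TTTCC with any 2 bases between, was present in front of Tlr3 alone among the members and in 1.41% of all promoters. The IRF motif, searched as GAAA repeated after any 2 bases, was present in front of Tlr6 alone, as 2 overlapping copies, and in 2.98% of all promoters. The promoters of the members with the largest rises, Tlr13 (chrX:106143025-106143274, plus strand) and Tlr8 (chrX:167264330-167264579, minus strand), and of the member that was never called, Tlr3 (chr8:45410381-45410630, minus strand), are shown in the direction of transcription with these motifs in capitals.
Tlr13: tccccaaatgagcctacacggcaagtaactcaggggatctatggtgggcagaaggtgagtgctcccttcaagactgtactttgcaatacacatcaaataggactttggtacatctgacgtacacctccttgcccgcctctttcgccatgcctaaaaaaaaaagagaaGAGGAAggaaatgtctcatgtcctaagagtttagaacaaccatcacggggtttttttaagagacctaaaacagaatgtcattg
Tlr8: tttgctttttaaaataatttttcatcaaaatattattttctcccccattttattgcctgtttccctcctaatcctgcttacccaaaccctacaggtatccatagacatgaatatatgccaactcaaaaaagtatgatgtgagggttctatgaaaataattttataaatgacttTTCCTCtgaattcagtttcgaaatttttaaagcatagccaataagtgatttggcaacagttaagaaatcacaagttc
Tlr3: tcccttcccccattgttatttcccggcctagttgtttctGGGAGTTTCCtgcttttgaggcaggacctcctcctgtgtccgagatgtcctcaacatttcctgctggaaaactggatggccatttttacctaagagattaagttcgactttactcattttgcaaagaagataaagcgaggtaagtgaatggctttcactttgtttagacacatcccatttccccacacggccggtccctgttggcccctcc
The PU.1 core lies 83 to 78 bases before the start of Tlr13 as written and 77 to 72 bases before that of Tlr8 as its reverse complement. These matches describe the letters and do not show binding.

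Between Contralateral and Uncrushed nerves, which asks whether injury on one side was seen on the other, no member was called. In this comparison 0% of 17722 tested genes were called higher and 0% lower by edgeR. The count at an unadjusted p under 0.05 was 3165 genes, and DESeq2 called 31 genes lower and 0 higher. Among the 10 members, 1 had an unadjusted p under 0.05, Tlr6, and DESeq2 called 0. The groups overlapped for every member. The median log2 fold change of the family was -0.36, beside -0.02 over all genes, and 8 of 10 members had a value below 0. Tlr6 had the lowest value, -0.96 ± 0.43 (edgeR adjusted p = 0.270), followed by Tlr2 with -0.80 ± 0.38 (edgeR adjusted p = 0.294). Tlr1 and Tlr3 were at 0.10 ± 0.60 and 0.01 ± 0.19.

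In the miRNA-biogenesis mutants the family was again higher, 3 months after tamoxifen and without nerve injury. In the Dicer iKO 7 of 10 genes rose, where 7.37% of 13045 tested genes were called higher and 1.64% lower. In the Dgcr8 iKO 8 of 10 rose, where 13.4% of 13252 genes were called higher and 6.99% lower. No member was called lower in either mutant. Tlr1 in both mutants and Tlr6 in the Dicer iKO passed the filter on low counts only with the iKO nerves, which favours a rise. Their lowest control counts were 7 to 9. The median log2 fold change of the family was 1.75 in the Dicer iKO and 1.83 in the Dgcr8 iKO, with medians over all genes of -0.01 in each. For all 10 members every iKO nerve lay above every one of its controls in both mutants, as it did for 21.9% of all tested genes in the Dicer comparison and 28.9% in the Dgcr8 comparison.

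**Figure D2:**
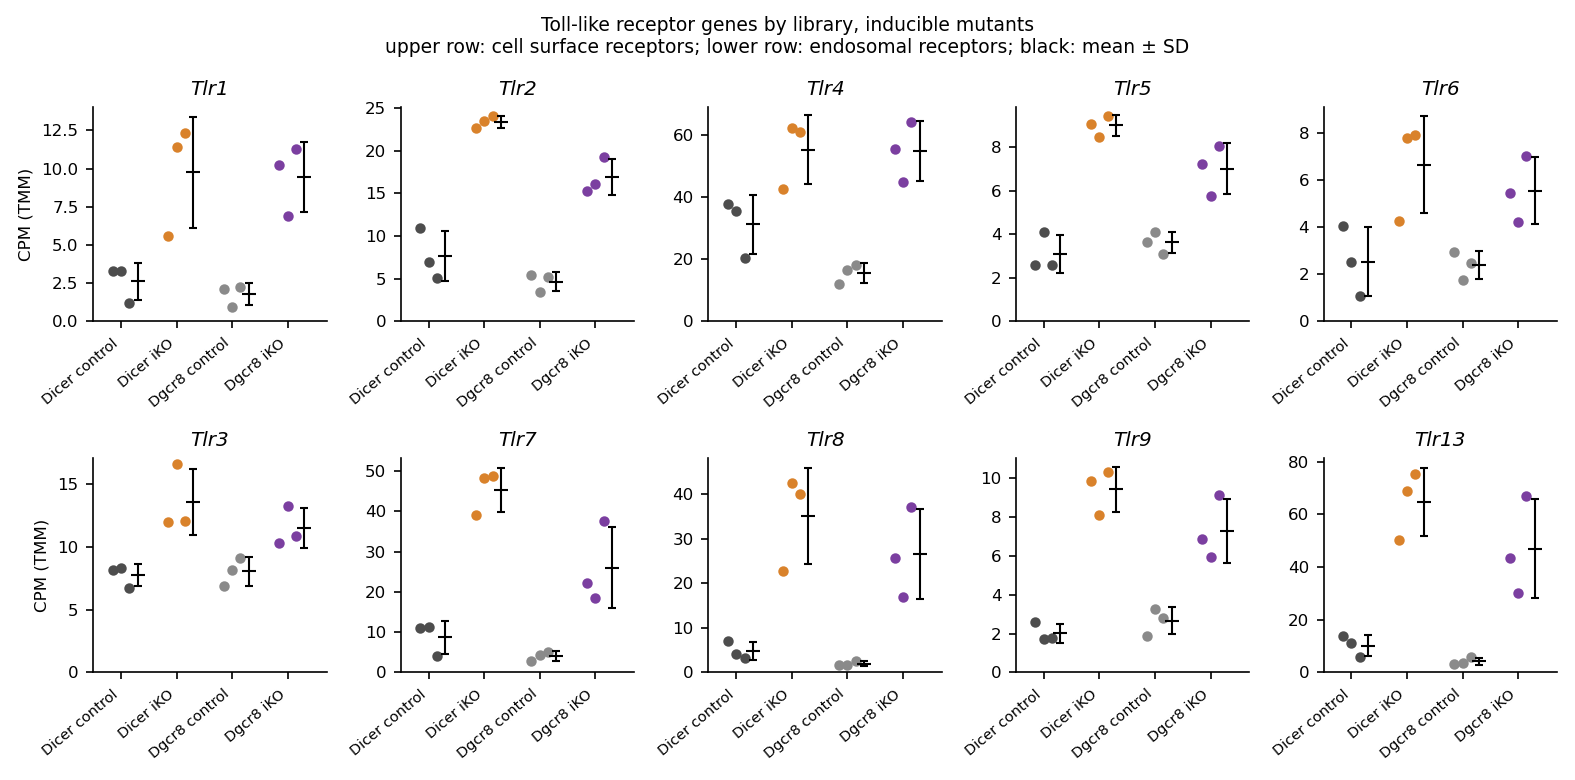
Each panel plots 1 Toll-like receptor gene in the mutant experiment, with CPM on a linear axis from 0, 1 point per nerve, and the mean ± SD in black beside each group of 3 nerves. In each panel the 3 iKO nerves lie above their own 3 controls, from 4.26 against 4.03 CPM at the nearest points of Tlr6 in the Dicer groups to 50.1 against 13.7 CPM for Tlr13.

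Tlr13 was at 50.1, 68.7 and 75.1 CPM in the Dicer iKO and at 13.7, 11.2 and 5.68 CPM in its controls. It was at 43.6, 30.0 and 67.1 CPM in the Dgcr8 iKO and at 3.19, 3.68 and 5.70 CPM in its controls. Both mutants were well clear of their controls, and the Dicer controls lay higher than or at the level of the Dgcr8 controls. The rise was 6.35-fold in the Dicer iKO (log2 2.67 ± 0.30, edgeR adjusted p = 0.00271) and 11-fold in the Dgcr8 iKO (log2 3.46 ± 0.32, edgeR adjusted p = 1.42e-05). Tlr8 was at 22.8, 42.6 and 40 CPM in the Dicer iKO against 7.04, 4.23 and 3.25 CPM in its controls. In the Dgcr8 iKO it was at 25.7, 16.9 and 37.1 CPM against 1.77, 1.63 and 2.59 CPM. These were the largest fold changes of the family in the mutants, 7.27-fold (log2 2.86 ± 0.34, edgeR adjusted p = 0.00288) and 13.0-fold (log2 3.70 ± 0.33, edgeR adjusted p = 1.11e-05).

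Tlr7 was at 39.0, 48.2 and 48.8 CPM in the Dicer iKO against 11.1, 11.2 and 4.06 CPM in its controls. In the Dgcr8 iKO it was at 22.1, 18.5 and 37.5 CPM against 2.72, 4.22 and 5.08 CPM. It rose by 2.37 ± 0.33 and 2.68 ± 0.31 on the log2 scale (edgeR adjusted p = 0.00431 and 5.57e-05). Tlr7, Tlr8 and Tlr13 are X-linked, and the Dicer libraries without Y-linked counts were unevenly split between mutants and controls. With a sex term in the fit, chosen after these libraries were seen, their log2 fold changes in the Dicer iKO were 2.54, 2.74 and 2.73 and all 3 stayed called (edgeR adjusted p = 0.0133, 0.0133 and 0.0114).

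Tlr9 was at 9.86, 8.11 and 10.3 CPM in the Dicer iKO against 2.59, 1.72 and 1.76 CPM in its controls, and at 6.85, 5.92 and 9.11 CPM in the Dgcr8 iKO against 1.89, 3.27 and 2.80 CPM. Its rise was 2.22 ± 0.26 and 1.45 ± 0.29 on the log2 scale (edgeR adjusted p = 0.00276 and 0.00190). Tlr3 was at 12, 16.6 and 12.1 CPM in the Dicer iKO against 8.19, 8.34 and 6.76 CPM, and at 10.3, 13.3 and 10.9 CPM in the Dgcr8 iKO against 6.85, 8.17 and 9.13 CPM. All of its iKO nerves were above their controls, yet by less than the fold limit. The log2 fold changes were 0.80 ± 0.20 (edgeR adjusted p = 0.0291) and 0.51 ± 0.20 (edgeR adjusted p = 0.0563).

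Of the surface receptors, Tlr2 was at 22.6, 23.5 and 24.0 CPM in the Dicer iKO against 10.9, 7.01 and 5.14 CPM, and at 15.3, 16.1 and 19.3 CPM in the Dgcr8 iKO against 5.43, 3.40 and 5.19 CPM. The iKO nerves of each mutant were tight, and Tlr2 rose by 1.61 ± 0.25 and 1.84 ± 0.22 on the log2 scale (edgeR adjusted p = 0.00648 and 7.06e-05). Tlr1 was at 5.60, 11.4 and 12.3 CPM in the Dicer iKO against 3.31, 3.31 and 1.22 CPM, and at 10.2, 6.87 and 11.3 CPM in the Dgcr8 iKO against 2.13, 0.953 and 2.28 CPM. It rose by 1.90 ± 0.44 (edgeR adjusted p = 0.0226) and by 2.36 ± 0.33 (edgeR adjusted p = 0.000221). The call in the Dicer iKO was lost without Dicer control replicate 2 (edgeR adjusted p = 0.0639), without Dicer iKO replicate 2 or 3 (0.0896 and 0.100), with the sex term (0.0689) and when replicate numbers entered as a block (0.0814), at log2 fold changes of 1.70 to 2.11.

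Tlr4 was at 42.6, 62.2 and 61.2 CPM in the Dicer iKO against 37.7, 35.7 and 20.4 CPM in its controls. In the Dgcr8 iKO it was at 55.7, 45.0 and 64.2 CPM against 11.9, 16.6 and 18.2 CPM. The mutants reached similar levels, and each Dicer control was above every Dgcr8 control. Tlr4 rose in the Dgcr8 iKO (log2 1.81 ± 0.18, edgeR adjusted p = 2.60e-05) and was at 0.82 ± 0.25 in the Dicer iKO, which was not called (edgeR adjusted p = 0.0510). Tlr5 was at 9.06, 8.46 and 9.42 CPM in the Dicer iKO against 2.59, 4.10 and 2.57 CPM, and at 7.20, 5.73 and 8.06 CPM in the Dgcr8 iKO against 3.66, 4.09 and 3.11 CPM. It rose in the Dicer iKO (log2 1.54 ± 0.25, edgeR adjusted p = 0.00746). In the Dgcr8 iKO its value of 0.95 ± 0.25 was below the fold limit (edgeR adjusted p = 0.00929), and it was called without Dgcr8 control replicate 2 (1.03) or Dgcr8 iKO replicate 2 (1.08).

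Tlr6 was at 4.26, 7.77 and 7.90 CPM in the Dicer iKO against 4.03, 2.51 and 1.08 CPM, and at 5.43, 4.20 and 7.01 CPM in the Dgcr8 iKO against 2.95, 1.77 and 2.49 CPM. The lowest Dicer iKO nerve was barely above the highest Dicer control. It rose in the Dgcr8 iKO (log2 1.18 ± 0.31, edgeR adjusted p = 0.00961), where the call was lost without Dgcr8 iKO replicate 3 at 0.98. In the Dicer iKO its log2 fold change of 1.38 ± 0.46 was not called (edgeR adjusted p = 0.0699). It was called there by DESeq2 (adjusted p = 0.0316), with all mutant groups in 1 fit (edgeR adjusted p = 0.0263) and without Dicer control replicate 1 (edgeR adjusted p = 0.0288).

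Whether the effect differed between the mutants was tested as the Dgcr8 effect minus the Dicer effect. No member was called, and over all 13552 tested genes 0.00738% were called with a difference above 0 and 0.00738% with one below 0, which is 1 gene each. Among the 10 members 0 had an adjusted p at or under 0.05 by edgeR, 1, Tlr4, had an unadjusted p under 0.05, and DESeq2 called 0. Over all 13552 tested genes, 1861 had an unadjusted p under 0.05. Tlr4 had the largest difference, 0.99 ± 0.34 on the log2 scale (edgeR adjusted p = 0.236). Without Dicer control replicate 3, the lowest of the Dicer controls for Tlr4, the difference was 1.23 and was called (edgeR adjusted p = 0.0353). Tlr9 had the most negative difference, -0.76 ± 0.39 (edgeR adjusted p = 0.418). The differences of Tlr8 and Tlr13 were 0.84 ± 0.53 and 0.80 ± 0.49 (edgeR adjusted p = 0.511 and 0.501).

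**Figure D3:**
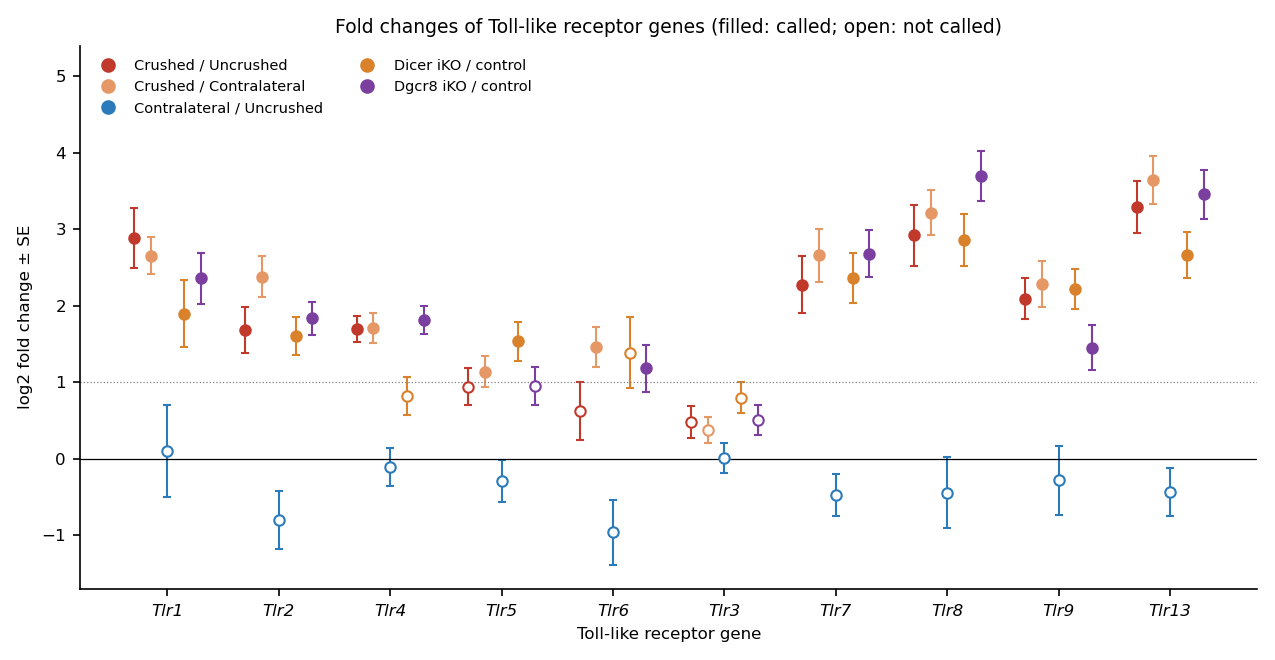
The log2 fold change (vertical axis) of each Toll-like receptor gene is plotted with its SE for 5 comparisons, filled where the gene was called and open where it was not, with a dotted line at the fold limit of 1. Tlr13 and Tlr8 hold the highest values in crushed nerves and in the Dgcr8 iKO, Tlr3 is open throughout, and all Contralateral against Uncrushed values are open, between -0.96 and 0.10.

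Counted over the 4 comparisons of crushed or mutant nerves with controls, 6 members, Tlr1, Tlr2, Tlr7, Tlr8, Tlr9 and Tlr13, were called higher in all 4, as were 5.06% of the 12643 genes tested in all 4. The crush comparisons among these share the Crushed nerves. In some of the 4, Tlr1, Tlr2, Tlr8 and Tlr9 passed the filter only with the higher group, as given above. Tlr4 was called in 3, Tlr5 and Tlr6 in 2 each, and Tlr3 in none. The other mouse genes of the family, Tlr11 and Tlr12, did not pass the filter on low counts in any comparison, with 0 to 1.77 CPM for Tlr11 and 0 to 1.62 CPM for Tlr12 over all libraries.

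The order of levels among the 10 genes was read from TPM, the deposited transcript abundances, which take transcript length into account, within each group. In Uncrushed nerves Tlr4 and Tlr1 came first, at mean levels of 0.173 and 0.170 TPM, and Tlr9 came last at 0.0433 TPM, and no gene was separated from its neighbour in the order by its range over nerves. In Contralateral nerves Tlr1, Tlr4 and Tlr3 led at 0.213, 0.212 and 0.212 TPM, and Tlr3 was separated from Tlr5, next in the order at 0.143 TPM. In Crushed nerves Tlr7 (1.38 TPM), Tlr13 (1.29 TPM), Tlr8 (1.04 TPM), Tlr4 (0.948 TPM) and Tlr1 (0.915 TPM) overlapped one another in turn, followed by Tlr2 (0.392 TPM) and the rest, down to Tlr6 at 0.160 TPM. Tlr1 was separated from Tlr2, while Tlr8, which varied more between nerves, was not. A ribosomal RNA gene, n-R5s193, took 61.4 to 71.8% of the TPM in the crush libraries. With CPM per kilobase of the longest transcript, chosen after this was seen, Tlr13 came before Tlr7 in Crushed nerves and Tlr1 moved from the second to the ninth place in Uncrushed nerves.

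In the mutant experiment Tlr4 stood first in both sets of controls, at 15.1 TPM in the Dicer controls and 7.06 TPM in the Dgcr8 controls, separated from the gene next in the order each time (Tlr7 at 5.86 TPM and Tlr3 at 3.44 TPM). Tlr8 was the last of the 10 in the Dgcr8 controls, at 1.12 TPM. In the Dicer iKO Tlr13 (32.6 TPM), Tlr8 (28.9 TPM), Tlr4 (27.9 TPM) and Tlr7 (27.6 TPM) overlapped in turn, and Tlr7 was separated from Tlr2 (16.1 TPM). In the Dgcr8 iKO Tlr4 (27.5 TPM) and Tlr13 (23.3 TPM) came first, and Tlr8, Tlr7 and Tlr2 followed with overlapping ranges at 20.1, 17.0 and 11.6 TPM. Tlr6 was lowest in Crushed nerves and in both mutants, at 3.74 TPM in the Dicer iKO and 3.06 TPM in the Dgcr8 iKO.

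As the mutants were made to interrupt miRNA production in SCs, the 3′UTRs of the 10 members (GENCODE M21, the longest annotated for each gene) were searched for matches to the seeds of the 4 miRNAs that the study assayed. Their mature sequences from RefSeq are given with the seed, bases 2 to 8, in capitals.
mmu-let-7f-5p: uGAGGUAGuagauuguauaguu
mmu-miR-10a-5p: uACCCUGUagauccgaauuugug
mmu-miR-181a-5p: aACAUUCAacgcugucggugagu
mmu-miR-30a-5p: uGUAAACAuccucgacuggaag
A let-7f match was found in Tlr6 alone, where 9.02% of 21020 genes with a 3′UTR held one. Matches to miR-181a were found in Tlr4, at 2 places, and in Tlr13, against 16.4% of all genes. Matches to miR-10a and miR-30a were found in no member, against 12.5% and 13.8% of all genes. The sites are given with the match in capitals.
Tlr6, let-7f: caagaaagaaggCTACCTCaactgtat
Tlr4, miR-181a, first: tcatattgtcacTGAATGTcattctta
Tlr4, miR-181a, second: ttgtgagatggaTGAATGTtgggagta
Tlr13, miR-181a: aacccggctgcaTGAATGTtgcccaaa
The other 7 members held none of these matches, in 3′UTRs of 58 (Tlr8) to 1496 (Tlr3) bases. Members with a match and members without one were both among those that rose in both mutants (Tlr13 and, for example, Tlr8) and among those not called in the Dicer iKO (Tlr4, Tlr6 and Tlr3). The study assayed let-7f in the adult inducible mutants and miR-10a, miR-181a and miR-30a in newborn mutants that are not among these groups. Its own target prediction for adult nerves used the most abundant miRNAs there. Other miRNAs and other kinds of match were not searched, and whether any match has a part in the changes was not tested. The match positions count from the first base of the 3′UTR and are 891 to 897 in Tlr6, 721 to 727 and 1040 to 1046 in Tlr4, and 33 to 39 in Tlr13.

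Genes that act with the receptors were followed in lists by role, to be read beside the shares of all tested genes called higher, 15.3% and 14.6% against Uncrushed and Contralateral nerves and 7.37% and 13.4% in the Dicer and Dgcr8 iKO. Of 9 co-receptors and chaperones, 6 rose against Uncrushed nerves, 7 against Contralateral nerves, 4 in the Dicer iKO and 5 in the Dgcr8 iKO, and none fell. The median log2 fold changes of the list were 1.57, 1.65, 1.23 and 2.11. Unc93b1, which carries the endosomal receptors out of the endoplasmic reticulum, was at 62.9 ± 12.7 CPM (SD, n = 4) in Crushed nerves and 13.1 ± 1.57 CPM (n = 3) in Uncrushed nerves, and rose by 2.35, 2.26, 1.72 and 2.11 on the log2 scale in the 4 comparisons. The surface pair Cd180 and Ly86, which form a complex related to that of Tlr4, rose in all 4 as well. Their log2 fold changes in the Dgcr8 iKO were 3.27 ± 0.38 and 2.40 ± 0.33 (edgeR adjusted p = 6.21e-05 and 0.000166). Cd180 was at 1.92 ± 1.82 CPM in the Dicer controls (SD, n = 3). In that comparison Cd180 passed the filter on low counts only with the iKO nerves, which favours a rise. Cd14, the co-receptor of Tlr4, rose in crushed nerves (1.71 ± 0.20 against Uncrushed, edgeR adjusted p = 1.21e-05) and was at 0.31 ± 0.31 and 0.71 ± 0.27 in the Dicer and Dgcr8 iKO, not called in either (edgeR adjusted p = 0.510 and 0.0535).

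Of 6 adaptors, 3 rose and 1 fell in each crush comparison, and 2 rose and none fell in each mutant. Pik3ap1, an adaptor that links the receptors to PI3 kinase, and Ticam2, which acts with Tlr4, were called in all 4. Their log2 fold changes were 2.92 and 1.16 against Uncrushed nerves and 1.86 and 2.24 in the Dgcr8 iKO. The control levels of Ticam2 were 1.42 ± 0.897 CPM (Dicer) and 1.08 ± 0.457 CPM (Dgcr8) (SD, n = 3 each). In both mutants Ticam2 passed the filter on low counts only with the iKO nerves, which favours a rise. Myd88, the adaptor shared by nearly all members, rose in crushed nerves from 5.87 ± 0.196 CPM (SD, n = 3) in Uncrushed to 18.3 ± 1.84 CPM (n = 4), a log2 fold change of 1.73 ± 0.13 (edgeR adjusted p = 2.36e-07). In the mutants it was at 0.50 ± 0.19 (Dicer) and 1 ± 0.16 (Dgcr8), the latter just under the fold limit before rounding (edgeR adjusted p = 0.102 and 0.000588). Sarm1, an adaptor of another kind that also drives the breakdown of cut axons, moved against its list and fell by 1.22 ± 0.40 on the log2 scale against Uncrushed nerves (edgeR adjusted p = 0.0168).

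Of 16 kinases and ubiquitin ligases, 6 rose against Uncrushed nerves, 4 against Contralateral nerves, 3 in the Dicer iKO and 4 in the Dgcr8 iKO. The list's medians were 0.75, 0.65, 0.15 and 0.30. Btk, a kinase of myeloid and B cells, Irak4, the first kinase bound by Myd88, and Ikbke were called in all 4, with log2 fold changes of 2.28, 1.38 and 1.35 against Uncrushed nerves. Ikbkg, the regulatory subunit of the IkB kinase complex, rose in crushed nerves (1.31 ± 0.10 against Uncrushed, edgeR adjusted p = 2.71e-07) and was at -0.29 ± 0.09 and -0.32 ± 0.13 in the mutants, neither past the fold limit. Tab1, a partner of the kinase Map3k7, was called lower against Contralateral nerves alone (-1.25 ± 0.13, edgeR adjusted p = 1.02e-06).

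Of 10 transcription factors, 4, 3, 2 and 4 rose in the 4 comparisons and none fell. Irf5 and Irf8 rose in all 4, and Irf8 reached 63.8 ± 15 CPM in the Dicer iKO against 12 ± 5.99 CPM in its controls (SD, n = 3 each). Spi1 rose in crushed nerves (2.37 ± 0.18 against Uncrushed, edgeR adjusted p = 2.54e-07) and in the Dgcr8 iKO (2.69 ± 0.36, edgeR adjusted p = 0.000165), and was at 1.61 ± 0.49 in the Dicer iKO, not called (edgeR adjusted p = 0.0543). Of 11 negative regulators, 3 of 10 tested rose against Uncrushed nerves, 2 of 9 against Contralateral nerves, 0 of 11 in the Dicer iKO and 1 of 10 in the Dgcr8 iKO. The counts in the latter 3 comparisons are near or below the shares of all genes. Irak3, an inactive kinase that restrains Irak signalling, rose in crushed nerves (1.70 ± 0.13 against Uncrushed, edgeR adjusted p = 3.20e-07). Socs1, an inhibitor of cytokine signalling, rose in crushed nerves (2 ± 0.46 against Uncrushed, edgeR adjusted p = 0.00231) and in the Dgcr8 iKO (1.91 ± 0.48, edgeR adjusted p = 0.00771), from 0.394 ± 0.231 to 1.64 ± 0.512 CPM in the former (SD, n = 3 and 4). Both sets of control nerves of the crush experiment were at about the detection limit for Socs1. It passed the filter there through the Crushed nerves, which fixed its direction, and it is among the negative regulators counted above. Tnfaip3, which removes ubiquitin from NF-kB signalling proteins, was called lower against Contralateral nerves (-1.14 ± 0.15, edgeR adjusted p = 1.30e-05).

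Most genes of the 15 target cytokines and enzymes were too low to test. In the 4 comparisons 3, 2, 3 and 1 of them were tested, and, other than Cxcl10 in the Dgcr8 comparison, their control levels were so low that they passed the filter through the crushed or mutant nerves, which fixed their direction. Il1b and Cxcl1 rose in crushed nerves, from 0.592 ± 0.244 to 3.09 ± 0.549 CPM and from 0.202 ± 0.275 to 2.06 ± 0.550 CPM against Uncrushed nerves (SD, n = 3 and 4), where the control level of Cxcl1 was under the detection limit. Cxcl10, an interferon-induced chemokine, rose in both mutants, to 11.8 ± 2.86 CPM from 0.637 ± 0.137 CPM in the Dicer iKO and to 19.0 ± 8.59 CPM from 2.15 ± 0.381 CPM in the Dgcr8 iKO (SD, n = 3 each). Of 8 endogenous ligands, 6 could be tested. Of these, 5 rose in each crush comparison, 2 in the Dicer iKO and 3 in the Dgcr8 iKO. Tnc, a matrix protein that activates Tlr4, went from 11.4 ± 3.62 CPM in Uncrushed to 269 ± 47.9 CPM in Crushed nerves (SD, n = 3 and 4) and rose by 2.93 ± 0.54 and 2.72 ± 0.18 on the log2 scale in the Dicer and Dgcr8 iKO. Fn1, another matrix ligand of Tlr4, rose in all 4 comparisons, by 2.69, 2.65, 1.93 and 2.31. Hspd1, a mitochondrial chaperone, and Vcan, a matrix proteoglycan, rose in crushed nerves, by 2.14 and 2.11 against Uncrushed nerves.

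**Figure D4:**
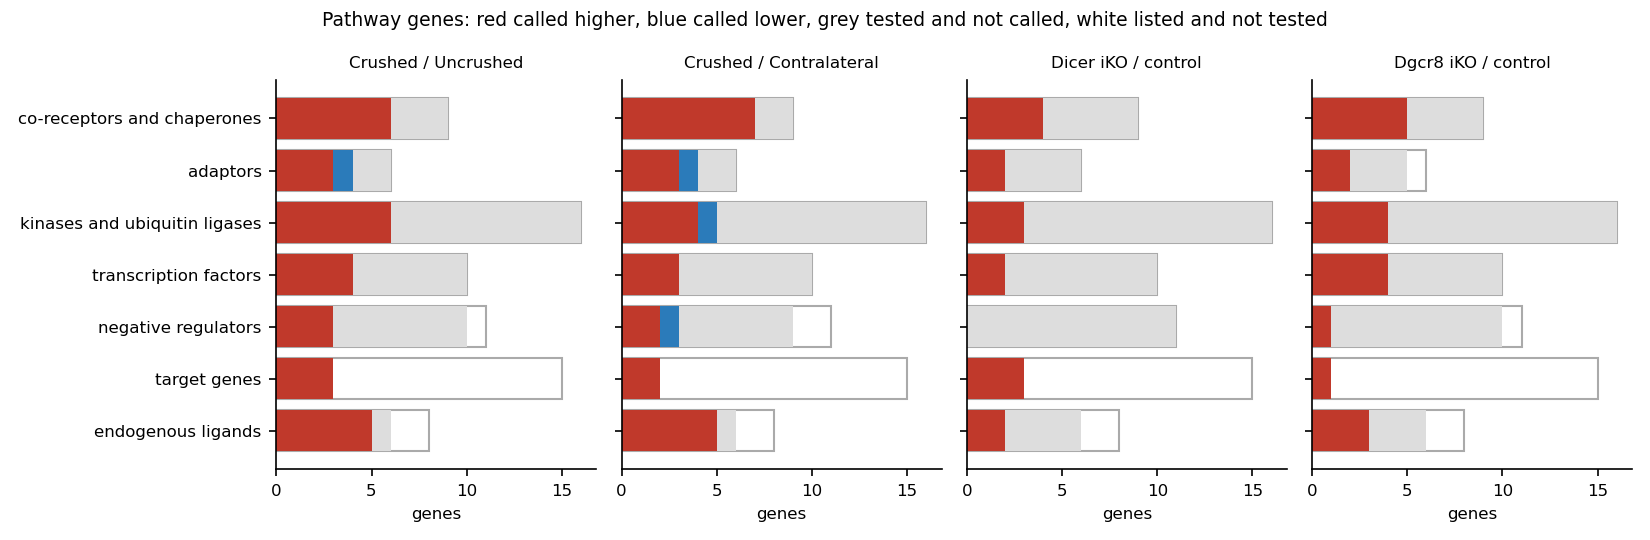
For each role list the bar gives the number of genes listed (white outline), tested (grey), called higher (red) and called lower (blue), in 4 comparisons. Red exceeds blue in every list with a call, blue appears in 3 lists only in the crush comparisons, and most of the 15 target genes were not tested.

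Markers of myeloid cells moved with the receptors. Of 12 myeloid markers, 11 rose in each crush comparison, 8 in the Dicer iKO and 10 in the Dgcr8 iKO, where 1, Cd163, fell. Ccr2, Itgam, Lyz2 and Fcgr1, found on monocytes and macrophages, led after crush, with log2 fold changes of 4.64, 4.62, 3.53 and 3.49 against Uncrushed nerves. Among markers called in both mutants Lyz2, Cd68 and Itgam had the largest mean change, with 4.63, 4.65 and 3.09 in the Dgcr8 iKO and 3.77, 3.63 and 2.59 in the Dicer iKO. Their summed level was 215 to 249 CPM in Uncrushed, 145 to 269 CPM in Contralateral and 998 to 2101 CPM in Crushed nerves. It was 411 to 1254 CPM in the Dicer controls and 3926 to 6900 CPM in the Dicer iKO, and 414 to 491 CPM in the Dgcr8 controls and 2600 to 6015 CPM in the Dgcr8 iKO. In RNA of whole nerves, more cells of a type and more RNA per cell cannot be told apart, and the part of the myeloid cells in the rise of the receptors was not tested. Per 100 CPM of the myeloid markers, the 10 receptors together amounted to 11.2 to 15.6 CPM in Uncrushed, 11.3 to 14.2 CPM in Contralateral and 7.11 to 7.31 CPM in Crushed nerves. In the mutants the same ratio was 8.06 to 12.6 in the Dicer controls, 4.36 to 5.55 in the Dicer iKO, 10.3 to 11.5 in the Dgcr8 controls and 4.51 to 6.25 in the Dgcr8 iKO. This ratio depends on 1 marker in the mutants, since Lyz2 made up 74.9 to 80.8% of the marker sum in the Dicer iKO and 71.9 to 80.2% in the Dgcr8 iKO, against 29.5 to 43.9% in their controls. Without Lyz2, a choice made after its share was seen, the direction turned in both mutants, to 14.4 to 19.4 in the Dicer controls and 22.2 to 24.5 in the Dicer iKO, and to 14.6 to 16.6 in the Dgcr8 controls and 21.9 to 22.8 in the Dgcr8 iKO. In the crush experiment the direction stayed, at 10.7 to 13.4 in Crushed nerves against 15.5 to 20.1 in Contralateral and 16.3 to 19.8 in Uncrushed nerves.

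**Figure D5:**
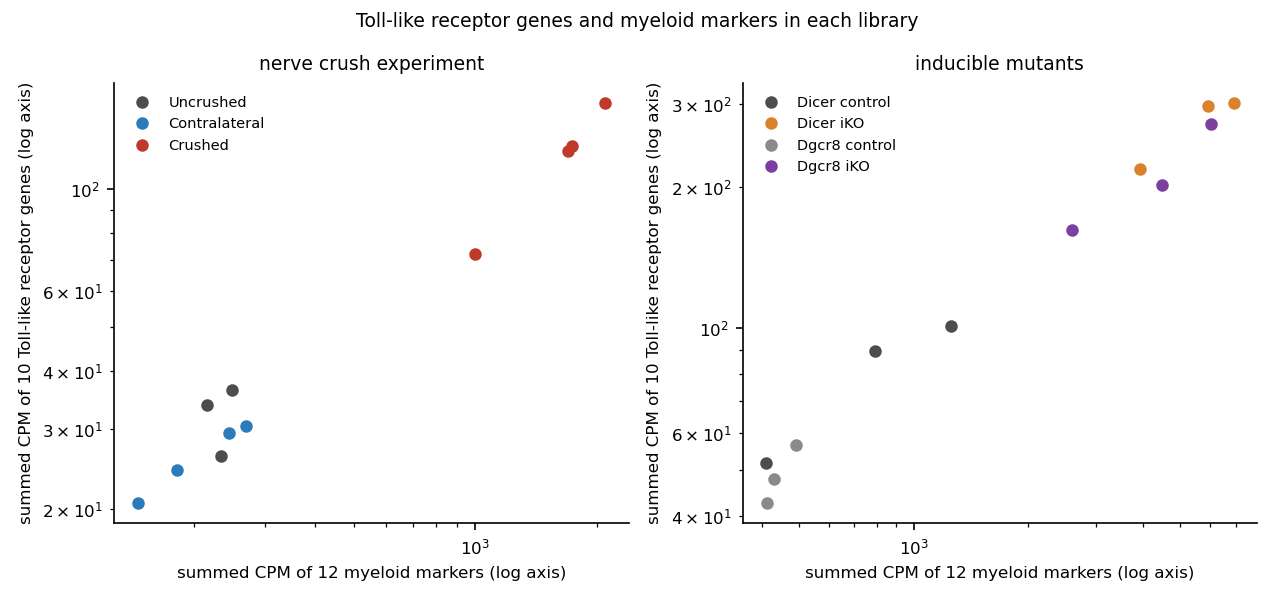
Each point is 1 library, with the summed CPM of 12 myeloid markers on the horizontal and of the 10 Toll-like receptor genes on the vertical log axis, for the crush experiment (left) and the mutants (right). Crushed and iKO nerves lie at the upper right of their controls, and the Dicer controls spread from 411 to 1254 CPM of markers.

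The members differed on this scale, given here per 100 CPM of the myeloid markers without Lyz2. Tlr13 was at 2.15 to 3.68 CPM in Crushed nerves, 1.31 to 1.77 in Contralateral and 1.75 to 1.96 in Uncrushed nerves. In the mutants it was at 5.09 to 5.67 in the Dicer iKO against 1.94 to 2.20 in its controls, and at 4.11 to 5.41 in the Dgcr8 iKO against 1.09 to 1.68. With Lyz2 in the sum, Tlr13 overlapped its controls in both mutants, at 1.09 to 1.28 against 1.09 to 1.42 (Dicer) and 0.971 to 1.15 against 0.770 to 1.16 (Dgcr8). Crushed nerves then overlapped Uncrushed nerves too, at 1.45 to 2.01 against 1.2 to 1.52, and stayed above Contralateral nerves, at 0.923 to 1.31.

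Tlr8 overlapped both control groups in Crushed nerves, at 1.10 to 1.54 against 0.456 to 1.51 in Contralateral and 0.451 to 1.68 in Uncrushed nerves. It was higher in the mutants, at 2.32 to 3.52 in the Dicer iKO against 0.828 to 1.21, and at 2.32 to 2.99 in the Dgcr8 iKO against 0.565 to 0.764. With Lyz2 in the sum its Dicer groups overlapped, at 0.580 to 0.723 against 0.536 to 0.790, and its Dgcr8 iKO remained above its controls, at 0.573 to 0.650 against 0.380 to 0.528. Tlr4 was lower in Crushed nerves, at 1.53 to 2.11 against 3.07 to 4.01 in all control nerves of that experiment. It was lower in the Dicer iKO, at 4.33 to 5.12 against 5.35 to 7.63, while in the Dgcr8 iKO it overlapped its controls, at 5.18 to 6.27 against 4.08 to 5.75. With Lyz2 in the sum Tlr4 was below its controls in both mutants, at 0.887 to 1.09 against 3 to 4.97 (Dicer) and 1.07 to 1.73 against 2.88 to 3.87 (Dgcr8). Without Lyz2, Tlr3 was at 0.776 to 0.836 in Crushed nerves against 2.53 to 7 in the controls. It was at 0.875 to 1.82 in the Dgcr8 iKO against 2.34 to 2.83 in its controls. In the Dicer iKO it overlapped its controls, at 0.911 to 1.37 against 1.16 to 2.53.

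Other cell types gave a mixed picture. The T cell markers summed to 11.2 to 26.7 CPM in the Dicer iKO and 16.8 to 24.9 CPM in the Dgcr8 iKO, against 0.676 to 2.30 CPM and 0.136 to 0.519 CPM in their controls, and Cd4, also found on some myeloid cells, rose in both mutants. The other T cell markers that could be tested in the Dgcr8 iKO, Cd3g and Cd8a, rose there too, to 2 ± 1.33 and 2.14 ± 1.38 CPM (SD, n = 3) from 0 and 0.148 ± 0.129 CPM. The control levels of Cd4, Cd3g and Cd8a were so low that these genes passed the filter through the iKO nerves, which fixed their direction. In Crushed nerves the T cell sum was 1.77 to 3.35 CPM and that of the B cell markers 2.37 to 3.88 CPM, no higher than the Uncrushed ranges of 5.78 to 7.55 and 4.88 to 10.1 CPM. No dendritic cell marker rose in any of the 4 comparisons. Of 8 neutrophil markers, 2 or 3 could be tested in each of these comparisons, and Csf3r, which other myeloid cells also carry, rose in both mutants and against Contralateral nerves. Cxcr2 fell in the Dgcr8 iKO and against Uncrushed nerves, and Retnlg was called higher in the Dgcr8 iKO and in both crush comparisons. Retnlg had no count in Contralateral nerves or Dgcr8 controls and was too low to test between Contralateral and Uncrushed nerves. It passed the filter through the Crushed or iKO nerves, which fixed its direction. Ly6g and Elane had no count in any nerve of either mutant, and the sums were 37.6 to 51.0 CPM in Crushed, 37.2 to 53.5 CPM in Uncrushed and 23.9 to 35.2 CPM in Contralateral nerves. Mast cell markers summed to 201 to 284 CPM in the Dicer iKO and 33.5 to 163 CPM in its controls, where 0 of 4 were called. In the Dgcr8 iKO 3 of 4 rose, while 3 of 4 (Cpa3, Cma1 and Mcpt4) fell in Crushed against Contralateral nerves. Of the SC markers, the myelin genes Mbp, Pmp22 and Mag were abundant in Uncrushed nerves, at 10621 ± 986, 9859 ± 221 and 126 ± 10.8 CPM (SD, n = 3), and fell after crush, to 656 ± 101, 171 ± 35.1 and 10.7 ± 3.02 CPM (SD, n = 4). None of these 3 was called in the Dicer iKO, and Mbp and Pmp22 fell in the Dgcr8 iKO, by 1.24 ± 0.27 and 1.02 ± 0.29 on the log2 scale (edgeR adjusted p = 0.00334 and 0.0149). Of 4 fibroblast markers 2, the matrix genes Col1a1 and Lum, rose in each mutant and none in crushed nerves, of 4 endothelial markers 2, Cdh5 and Tie1, rose in each crush comparison and none in the mutants, and no muscle or adipocyte marker, most of which were too low to test, was called higher. The parts of these cells in the receptor values were not tested.

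To find the genes whose pattern was most like each member, the log2 CPM (with 1 added) of each gene in all 23 libraries was taken relative to the controls of the same experiment, and genes were ranked by the root mean square difference over the libraries among 12478 genes tested in all 5 comparisons of 2 groups. The nearest gene to Tlr13 was Cybb, the catalytic subunit of the phagocyte NADPH oxidase, at 0.189, followed by Cd53 and Laptm5 at 0.214 each, while the median over all genes was 1.96. For Tlr7 the nearest were Clec12a (0.243), Igsf6 (0.253) and Ctsh (0.256), and for Tlr8 Myo1f (0.291), Id2 (0.304) and Nckap1l (0.310). For Tlr9 they were Entpd1 and Naip6 (0.265 each) and Aim2 (0.272), a cytosolic DNA sensor. For Tlr2 they were Klhl6 (0.255), Psd4 (0.259) and Pik3cg (0.269), and for Tlr1 Sh3bp2 (0.257), Skil (0.312) and Il10ra (0.321).

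Tlr4 had as its nearest genes Chsy1 (0.195), Sulf2 (0.205) and Mgst1 (0.210), of which Chsy1 makes chondroitin sulfate chains and Sulf2 trims heparan sulfate. Tlr5 was nearest to Gpx7 (0.235), Thoc6 (0.236) and P2rx4 (0.239), Tlr6 to Ppp1r3b (0.288), Vash2 (0.299) and B3galnt1 (0.300), and Tlr3 to Man1a (0.188), Slc41a3 and Trim5 (0.191 each). Among the members themselves the closest pairs were Tlr2 with Tlr9 (0.338), Tlr5 with Tlr6 (0.367) and Tlr8 with Tlr13 (0.372), and the most distant pair was Tlr3 with Tlr13 (1.66). These distances are descriptions over libraries that share their controls, and genes of small change are near to many others.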

How the data were processed

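Whole sciatic nerves were profiled by paired-end RNA-seq. Per the study's methods, reads were trimmed with Trimmomatic, aligned with STAR to the Ensembl GRCm38 annotation and quantified with RSEM. Per the labels, the crush libraries were made with a SMARTer stranded pico kit and the mutant libraries with a TruSeq stranded kit after ribosomal RNA removal, so the experiments were fitted apart. The study's methods describe the TruSeq kit for all of them, and which is right was not settled. The authors deposited, for each transcript of each library, RSEM expected counts, TPM and FPKM values. The expected counts of a gene's transcripts were added and the sum was rounded, and the deposited TPM and FPKM values were summed per gene for levels between genes. Gene IDs were matched to GRCm38 symbols.

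Genes passing edgeR's filterByExpr (minimum count 10) were fitted with TMM scaling and the quasi-likelihood test (edgeR 4.0.16, R 4.3.3) on the groups compared, or on all 4 mutant groups for the difference between mutants. P-values were adjusted over all tested genes, and genes were called at a fold change of at least 2 and an adjusted p of at most 0.05 (for the difference between mutants at the adjusted p alone). The SE was taken as the log2 fold change over the root of its F statistic. All 10 receptor genes passed the filter in each comparison, some of them only with the crushed or mutant nerves, as given above. The labels number replicates without saying which nerves share a mouse, so p-values measure the spread between these nerves. Crushed and Contralateral nerves, taken from the same mice per the study's methods, were compared without pairing.

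The receptor genes and the lists were chosen with earlier results of these data known. All receptor genes are named. From each role list the genes named are up to 4 with the largest log2 fold change against Uncrushed nerves among those called alike in both crush comparisons, up to 3 with the largest mean in the mutants among those called alike in both, and any called against most of its list. Genes named among the cell type markers were chosen after their values were seen. Scripts were tested on simulated data. Alternatives were DESeq2 1.42.0, RLE scaling, other filters, a replicate block, a joint fit, no fold limit, each library left out, and, after the data were seen, a sex term, CPM per kilobase and a myeloid marker sum without Lyz2. Intervals on counts cover counting error only. One of the Schwann cell markers is not reported here.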

Additional observations from a re-analysis of the deposited data

Results flagged for a closer look

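One value stood apart by a test of the gap to the nearest neighbour among groups of 4 nerves. Tlr2 in Contralateral replicate 2 was at 0.709 CPM, the lowest of 4, while the other 3 were at 1.42, 1.41 and 1.54 CPM. Of the 20 sets of 4 values tested, 1 was picked out, and chance picks out about 1 in 20. Without this nerve Tlr2 remained called higher in crushed nerves.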

How the results depend on the processing

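The alternatives kept most calls. Of the values of single receptor genes under every alternative and left-out library, 145 of 145 kept their direction and side of the threshold for Crushed against Contralateral nerves, 132 of 137 for Crushed against Uncrushed, 125 of 129 for the Dgcr8 iKO and 129 of 138 for the Dicer iKO. Requiring at least 10 counts in every library left fewer receptor genes to test, and 4 were called higher against Uncrushed and 4 against Contralateral nerves. Tlr1, Tlr8 and Tlr9 dropped out against Uncrushed nerves, and Tlr1, Tlr2, Tlr6, Tlr8 and Tlr9 against Contralateral nerves. Over all genes, 1747 were called higher against Uncrushed nerves with this filter. Leaving out 1 library at a time gave 7 to 8 receptor genes higher against Uncrushed nerves, 9 against Contralateral nerves, 6 to 8 in the Dicer iKO, 7 to 9 in the Dgcr8 iKO, 0 for Contralateral against Uncrushed nerves and 0 to 1 for the difference between mutants, and 0 lower in each. Values near 0 changed sign. For Contralateral against Uncrushed nerves, Tlr3 was at -0.0126 with at least 10 counts in every library, -0.08 without Contralateral replicate 2 and -0.11 without Uncrushed replicate 3, and ran from there to 0.20 with other libraries left out. Tlr1 was at -0.0934 with the replicate block, -0.15 without Contralateral replicate 4, -0.48 without Uncrushed replicate 1, and at most 0.67 with 1 library left out. Tlr4 ran from -0.31 to 0.0573, the latter without Contralateral replicate 2. For the difference between mutants, Tlr7 ran from -0.0354 (without Dgcr8 iKO replicate 3) to 0.66, Tlr2 from -0.10 (without Dicer control replicate 1) to 0.46 and Tlr6 from -0.68 to 0.17 (without Dicer control replicate 3). The cause of these changes was not tested.

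Per the study's methods the contralateral nerve came from the crushed mice, so Crushed and Contralateral nerves share mice, with the matching numbers not given. Same-numbered nerves did not clearly deviate together. Correlations of their deviations from the group means were -0.12 to 0.21 for Crushed with Contralateral nerves and -0.19 to 0.24 over all pairs of groups. The numbers were therefore not taken as pairs in the main fits, which does not show that the nerves are independent. With the replicate number as a block, all genes called in the Dicer iKO went from 961 to 548 higher and from 214 to 92 lower. All genes called, Dicer iKO against its controls, ran from 515 to 1093 higher and from 57 to 375 lower with 1 library left out. All genes called, Dgcr8 effect against Dicer effect, were 170 above and 65 below 0 by DESeq2, and 320 and 81 without Dicer control replicate 3. All genes called, contralateral against uncrushed nerves, were 13 higher and 128 lower with no filter on low counts, and 0 to 95 lower with 1 library left out. Without the fold limit, all genes called, crushed against uncrushed nerves, were 5891 higher and 5821 lower. The order of levels was the same with FPKM, while with CPM per kilobase the rank differed from that by TPM for 7 genes in Uncrushed, 7 in Contralateral and 7 in Crushed nerves, 5 in the Dicer controls, 5 in the Dicer iKO, 3 in the Dgcr8 controls and 2 in the Dgcr8 iKO. At these depths Tlr11, Tlr12 and most target cytokines could not be tested. The ratio of the receptors to the myeloid markers turned its direction in both mutants without Lyz2, as given above.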
